A study of Eohaustorius estuarius with 16 samples.

Results

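The contigs described here were those whose signal differed most between whole-body samples of control amphipods. Contigs are assembled pieces of transcript sequence, and 150 of the 8507 on the array were taken. Signal was first brought to a common 75th percentile over arrays (455 units, the mean of the 16), then floored at 5 units and put on the log2 scale. A contig could be chosen when its mean level in controls was at least 7 log2 units, it was not among the 200 highest control means, and its values in the cyfluthrin and control arrays overlapped. Of the 3842 contigs that met these conditions, the 150 with the largest standard deviation (SD) over the 8 control arrays were taken, after each slide had been centred on its own mean. The remaining 3692 are called the other contigs below.

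Eohaustorius estuarius is a burrowing amphipod of estuaries that is used in sediment toxicity tests. Amphipods moult throughout life, and females carry their brood in a pouch, so a whole-body extract holds RNA of every organ and of whatever the animal has on or in it. Cyfluthrin is a pyrethroid, a class of insecticide that acts on voltage-gated sodium channels of nerve cells. The spread between replicate animals or pools sets the size of change that a treatment comparison can resolve for a given transcript.

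All 16 arrays came from whole bodies processed in laboratory A. Of these, 8 were of amphipods held for 10 days on sediment spiked with cyfluthrin at a nominal 1.6 µg/kg, and 8 were of amphipods held for 10 days on solvent-spiked sediment. The labels give no sex, size, age, moult stage or number of animals per sample, nor whether the 8 samples of a treatment were exposed apart from each other, so the p-values rest on the spread between these samples alone, which may in part be technical. Each of 2 slides held 4 cyfluthrin and 4 control arrays, with replicates 1 to 4 on slide 1 and replicates 5 to 8 on slide 2.

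The 75th percentile of signal was 274 to 950.4 units on cyfluthrin arrays and 301 to 623 units on control arrays. Between 6234 and 8478 of 8507 contigs were well above background on an array, and the correlation of 2 arrays over all contigs was 0.838 to 0.985. Cyfluthrin arrays all lay in slide row 2 and control arrays in slide row 1, so row and treatment cannot be told apart. Fewer cells of a type and less RNA per cell cannot be told apart in whole-body RNA either.

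The control SD of the 150 contigs, which chose them, was 1.16 to 4.89 log2 units with a median of 1.46, against a median of 0.24 for the other contigs. The last contigs inside the limit were eohaus_trim.v2-contig_5068, eohaus_trim.v2-contig_2868 and eohaus_trim.v2-contig_5682, with control SDs of 1.166, 1.162 and 1.157. The first outside were eohaus_trim.v2-contig_5499, eohaus_trim.v2-contig_5713 and eohaus_trim.v2-contig_806, with 1.155, 1.148 and 1.143, so the limit falls on a continuous slope. All identifiers share the prefix eohaus_trim.v2, which is left out from here on. The chosen contigs were found at every level: 45, 40, 36 and 29 of them lay in 4 bins of rising control mean, each with about the same number of contigs, a share of 4.68%, 4.17%, 3.75% and 3.02%. Their median control level was 8.53, against 8.79 for the other contigs.

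The 10 contigs with the largest control SD were contig_274, contig_130, contig_3092, contig_7910, contig_8611, contig_591, contig_712, contig_2592, contig_4123 and contig_5067. Contig_3092 was well above background on all 16 arrays. Its log2 level was lowest at 7.07, 11.80 at the median and highest at 15.93 on cyfluthrin arrays, and 5.10, 11.35 and 16.13 on control arrays. The brightest array was thus 464-fold over the dimmest with cyfluthrin and 2096-fold in controls, and the 2 groups covered nearly the same range. In controls, replicates 4, 7 and 8 were high at 15.01, 14.68 and 16.13, and replicates 1 and 2 were low at 5.10 and 5.40. With cyfluthrin, replicates 8, 4 and 6 were high at 15.93, 14.49 and 13.74, and replicates 1 and 7 were low at 7.07 and 7.63.

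Contig_274, with the largest control SD of 4.89, had levels of 3.62, 7.46 and 14.39 (lowest, median, highest) on cyfluthrin arrays and 2.59, 9.48 and 14.20 on control arrays. It was above background on 7 of 8 cyfluthrin arrays and 5 of 8 control arrays, so its lowest values show only that the signal was low there. Contig_130 ran from 5.46 to 15.80 over cyfluthrin arrays and from 4.09 to 14.75 over control arrays. In both contigs cyfluthrin replicate 8 and control replicate 4 were the brightest of their group. For the other 7 of the 10, the lowest level was 2.83 to 5.44 with cyfluthrin and 2.45 to 5.01 in controls, and the highest was 11.32 to 13.37 with cyfluthrin and 11.57 to 14.97 in controls.

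**Figure D1:**
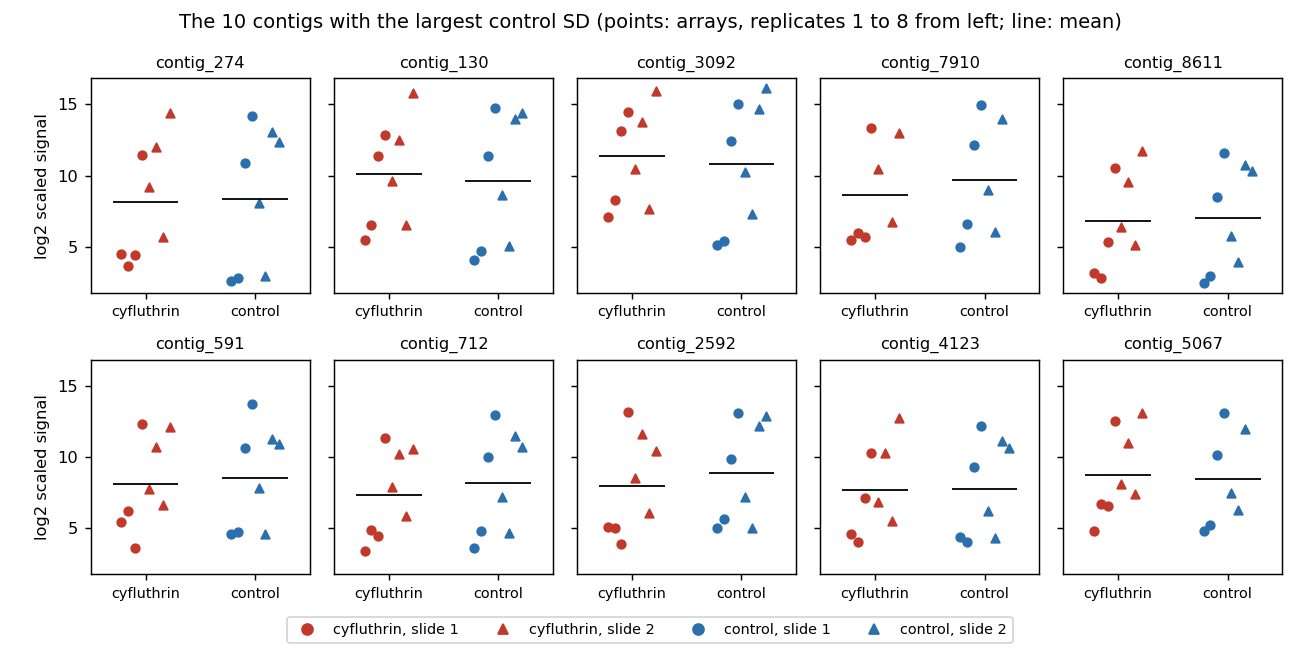
Log2 scaled signal of the 10 contigs with the largest control SD, 1 panel per contig, with cyfluthrin arrays left and control arrays right. Each point is 1 array, in the order of replicates 1 to 8, circles are slide 1, triangles are slide 2, and the line is the group mean. In contig_3092 the levels lie between 7.07 and 15.93 on cyfluthrin arrays and between 5.10 and 16.13 on control arrays.

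The same contigs varied widely among cyfluthrin arrays, whose spread had no part in ranking them. Their median SD over the 8 cyfluthrin arrays, centred by slide in the same way, was 1.85 (range 0.63 to 4.22), against 0.25 for the other contigs, whose 90th percentile was 0.54. Of the 150, 149 lay in the top 10% of cyfluthrin SD among all 3842 contigs (limit 0.66), where 10.0% of the 3842 lie by construction. The exception was contig_7768, with an SD of 0.63. Among the 150 contigs with the largest cyfluthrin SD, 132 were also among the 150 largest in controls. The 150 contigs, 3.90% of those that could have been chosen, held 54.6% of the summed variance within slides on cyfluthrin arrays. Their 59.9% on control arrays follows from the choice by control SD.

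That spread was uneven between arrays and slides. Cyfluthrin replicate 1 was the array farthest from its slide's mean in 79 of the 150 contigs, and control replicate 4 was in 84. In 97 contigs the farthest cyfluthrin array alone held over 50% of the variance, while this held for 15 contigs in controls. Without cyfluthrin replicate 1 the median SD fell to 0.93, and 143 of the 150 contigs were still in the top 10%. Over the 4 cyfluthrin arrays of slide 1 alone the median SD was 2.66, against 0.26 for the other contigs. On that slide 148 of the 150 were in the top 10%. Over the 4 of slide 2 the median was 0.44, against 0.22 for the other contigs, and 70 of the 150 were in the top 10%.

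**Figure D2:**
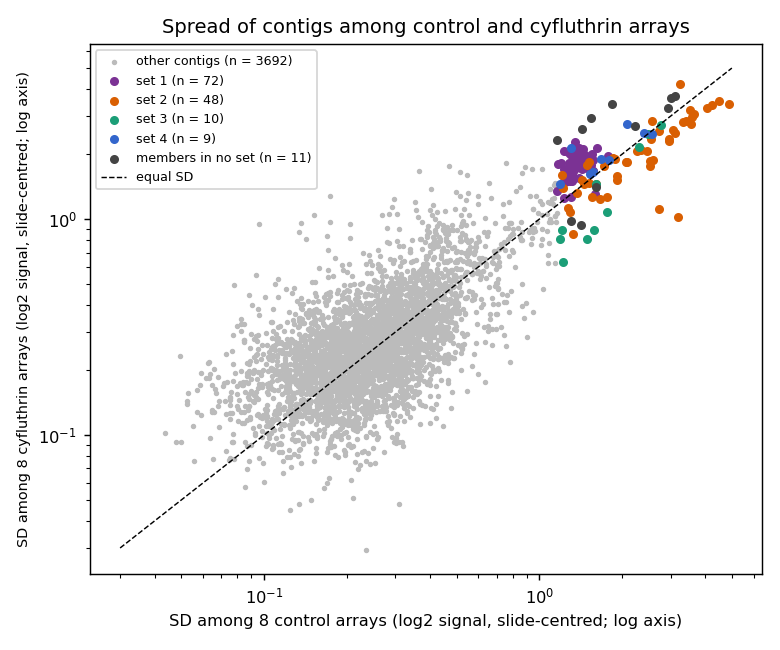
SD of each contig over the 8 cyfluthrin arrays (vertical, log axis) against its SD over the 8 control arrays (horizontal, log axis), both in log2 signal after centring each slide. Grey points are the 3692 other contigs, coloured points are the 150 chosen contigs by set, and the dashed line marks equal SD. The chosen contigs lie at the right edge by selection, and 149 of them also lie at or above a cyfluthrin SD of 0.66.

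Within the 150, the spread was larger with cyfluthrin in 98 contigs and smaller in 52, but the control SD set beside it is the value that chose the contigs, and the direction rested on 1 array. Without cyfluthrin replicate 1 the spread was larger with cyfluthrin in 20 of the 150, and the median SD was 0.93 with cyfluthrin and 1.46 in controls. With each contig's farthest array left out of each group, the medians were 0.85 with cyfluthrin and 1.15 in controls. The largest cyfluthrin SDs were those of contig_2394 (4.22), contig_766 (3.70), contig_1262 (3.62), contig_130 (3.52) and contig_274 (3.42). Contig_2394 had levels of 3.23, 8.71 and 16.14 (lowest, median, highest) on the 8 cyfluthrin arrays, and 6.01, 9.44 and 14.67 on the 6 control arrays left after spots marked as outliers were dropped. Control replicates 4 and 8 were missing, the 2 brightest controls of contig_130 and contig_3092. The control range and SD of contig_2394 may thus be too small. The smallest cyfluthrin SDs were those of contig_7768 (0.63), contig_5146 (0.81), contig_3424 (0.81), contig_2882 (0.85) and contig_1686 (0.89). Contig_3424 ran from 6.37 to 9.27 on cyfluthrin arrays and from 5.64 to 10.33 on control arrays. Control replicate 8 was the highest control array in all of these but contig_2882, where control replicate 4 was.

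In the contigs printed as 2 spots, the spots gave nearly the same median spread. Of the 150 contigs, 111 were printed as 2 spots, 35 as 1 spot and 4 as 11 spots. The 2 spots on an array differed by a median of 0.12 log2 units, the same as the 0.12 of the other contigs. The median SD from the first spot and from the second was 1.85 and 1.85 on cyfluthrin arrays, and 1.42 and 1.39 on control arrays. The correlation of the 2 spots had a median of 0.998 over cyfluthrin arrays and 0.998 over control arrays. For the other contigs with 2 spots it was 0.890 and 0.940. Nothing is read from that gap, as the 150 were chosen for a wide spread. The lowest correlation among the 111 contigs was 0.160 with cyfluthrin and 0.922 in controls. These values bear on the reading of the spots, which share 1 labelled RNA, and not on steps before hybridisation.

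Of the 150 contigs, 87 were well above background on all 16 arrays, 91 on all cyfluthrin arrays and 125 on all control arrays, against 3681 of the 3692 other contigs on all 16. For the rest of the 150, a value on an array without signal well above background is imprecise, and a value at the floor is only a bound. Their SD rests in part on such values. No spot was saturated.

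The contigs did not vary independently of each other. Joined by average linkage over the slide-centred control arrays at a mean correlation of 0.7, 139 of the 150 fell into 4 sets of at least 5 contigs, with 72, 48, 10 and 9 contigs, and 11 were in no set. High correlation among controls is what formed the sets and is no result. Over the 8 cyfluthrin arrays, which did not form them, the median correlation of 2 contigs of a set was 0.989 in set 1, 0.793 in set 2, 0.731 in set 3 and 0.903 in set 4. Pairs from different sets had a median of 0.186, and pairs of the other contigs had 0.061. These correlations are over 8 arrays that all the contigs share, and the sequences were not used here, so whether contigs of a set are pieces of 1 transcript was not tested.

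**Figure D3:**
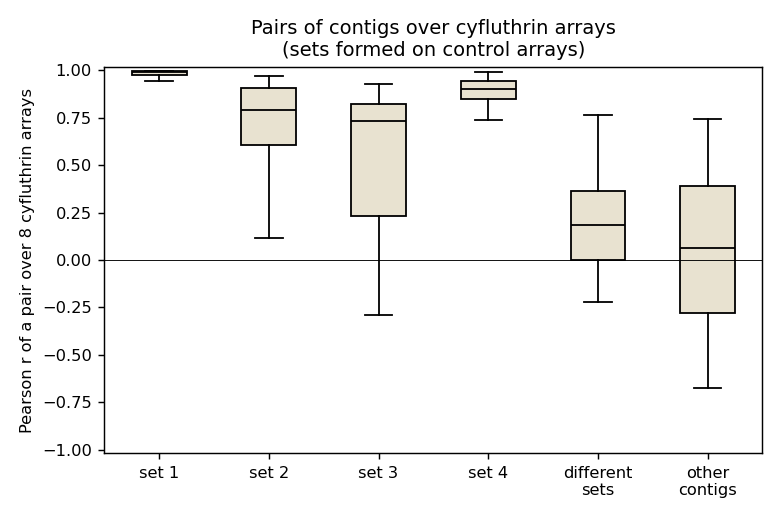
Pearson correlation of pairs of contigs over the 8 slide-centred cyfluthrin arrays (vertical axis, no unit) for pairs within each set, pairs from different sets, and pairs of the other contigs. Boxes give the quartiles and the median, and whiskers the 5th and 95th percentiles. Medians are 0.989, 0.793, 0.731 and 0.903 within sets 1 to 4, and 0.186 between sets.

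Set 1 held the largest number of contigs and moved as 1 block. All 72 contigs had a correlation of 0.843 or more with every other contig of the set over cyfluthrin arrays. On cyfluthrin replicates 1 to 8, the mean log2 level of the set was 4.39, 10.57, 9.59, 8.08, 10.39, 10.62, 10.92 and 10.67. On control replicates 1 to 8 it was 9.94, 6.68, 9.71, 6.12, 9.48, 8.90, 9.77 and 8.70. The low arrays were thus cyfluthrin replicates 1 and 4 and control replicates 2 and 4, all on slide 1, while the arrays of slide 2 lay between 10.39 and 10.92 with cyfluthrin and between 8.70 and 9.77 in controls. Only 31 of the 72 contigs were above background on cyfluthrin replicate 1, so the mean of 4.39 there is imprecise, and 61 were on control replicate 4.

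The 2 contigs most like the rest of set 1 over controls were contig_2380 and contig_1789, both above background on all 16 arrays. Contig_1789 had levels of 7.60, 13.40 and 13.96 (lowest, median, highest) on cyfluthrin arrays, an 82.5-fold range, and 9.17, 12.37 and 13.00 on control arrays, a 14.2-fold range. Contig_2380 had 6.10, 12.18 and 12.63 on cyfluthrin arrays and 7.70, 10.89 and 11.49 on control arrays. In each, cyfluthrin replicate 1 and control replicates 2 and 4 lay furthest below the other arrays of their group.

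On cyfluthrin replicate 1 the 75th percentile of signal before scaling was 317 units, near the low end of the 274 to 950.4 of the cyfluthrin arrays, and 6723 of the 8507 contigs were above background. The lowest, 274 units, was on cyfluthrin replicate 2, where the mean of set 1 was 10.57. Whether array signal had a part in the low level of set 1 on cyfluthrin replicate 1 was not tested. Of the 72 contigs of set 1, 70 had a larger SD with cyfluthrin than in controls, with a median of 1.82 with cyfluthrin and 1.34 in controls. With cyfluthrin replicate 1 left out and all controls kept, the SD was larger with cyfluthrin in 0 of the 72. The median with cyfluthrin was then 0.76. Over slide 2 alone their median cyfluthrin SD was 0.29, against 0.54 over the controls of that slide, and 1 of the 72 was in the top 10%. The control SD chose these contigs, so nothing is read from the direction of these comparisons. The median correlation of 2 contigs of set 1 was 0.994 over the 4 cyfluthrin arrays of slide 1 and 0.727 over the 4 of slide 2.

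**Figure D4:**
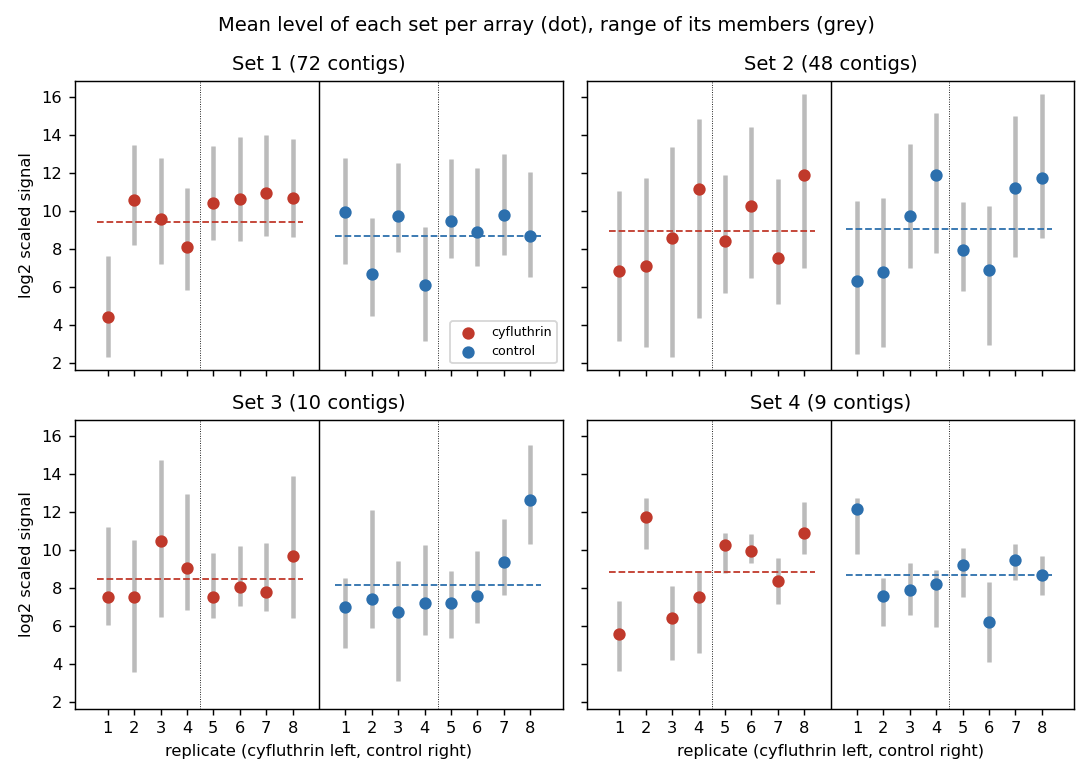
Mean log2 scaled signal of each set on each array (dots), with the range of its contigs (grey bars), cyfluthrin replicates left and control replicates right in each panel. Dotted lines separate the slides and dashed lines are group means. Set 1 is lowest on cyfluthrin replicate 1, at 4.39, and set 3 is highest on control replicate 8, at 12.62.

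Set 2 held all 10 contigs with the largest control SD. Its mean level was 6.81, 7.11, 8.54, 11.14, 8.42, 10.25, 7.50 and 11.86 on cyfluthrin replicates 1 to 8, and 6.29, 6.79, 9.74, 11.90, 7.92, 6.89, 11.18 and 11.74 on control replicates 1 to 8. High arrays occurred on both slides in both groups, and the set means overlapped over nearly their whole range. The median SD of its contigs was 1.86 with cyfluthrin and 2.40 in controls, and 37 of the 48 had the smaller SD with cyfluthrin. The control SD is the value that chose these contigs, so nothing is read from that direction. Within slide 2 alone, 46 of the 48 were still in the top 10% of cyfluthrin SD.

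In 42 of the 48 contigs of set 2, control replicates 3, 4, 7 and 8 were all higher than replicates 1, 2, 5 and 6. These 4 controls lay in slide columns 1 and 2. Cyfluthrin replicates 3, 4, 7 and 8 lay in the same columns, and in 0 of the 48 were they all above the other 4. Cyfluthrin replicates 4, 6 and 8 were instead the 3 highest in 25 of the 48. Replicates 4 and 8 lay in slide column 1 in both groups. With cyfluthrin the mean of set 2 was 11.14 and 11.86 on them, and the next highest was 10.25. In controls it was 11.90 and 11.74, and the next highest was 11.18. The part of slide position in these patterns was not tested.

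Contig_946 and contig_6226 were the most like the rest of set 2, and both were above background on every array. Contig_946 had levels of 4.80, 6.66 and 10.57 on cyfluthrin arrays (lowest, median, highest), a 54.3-fold range, and 4.90, 7.31 and 11.20 on control arrays, a 78.7-fold range. Contig_6226 had 6.56, 8.13 and 12.26 on cyfluthrin arrays and 6.40, 8.51 and 10.96 on control arrays. Cyfluthrin replicate 8 was the highest of its group in both.

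Not every contig kept to set 2 outside the controls. Over cyfluthrin arrays 33 of the 48 had a mean correlation of at least 0.7 with the rest of the set, and the lowest pair correlation was -0.842. Contig_5680, singled out after its values were seen, had the lowest mean correlation, at -0.409. Its level was 2.32 and 4.36 on cyfluthrin replicates 3 and 4, where 2.32 is the floor, and 6.44 to 7.89 on the other 6 cyfluthrin arrays. In controls it was 6.64 to 10.06, with replicate 3 the highest.

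Set 3 rested largely on 1 control array. Its mean level was 7.53, 7.53, 10.46, 9.07, 7.53, 8.05, 7.76 and 9.68 on cyfluthrin replicates 1 to 8, and 6.99, 7.42, 6.73, 7.20, 7.19, 7.55, 9.34 and 12.62 on control replicates 1 to 8. Control replicate 8 was the highest control in all 10 contigs. Relative to the slide mean, cyfluthrin replicate 3 was the highest of its group in 7 of them, and without that array the median correlation of 2 contigs of the set fell to 0.347. None of the 10 reached a mean correlation of 0.7 with the rest over cyfluthrin arrays. Over the 4 controls of slide 1 the median correlation of the set was -0.184, and over those of slide 2 it was 0.956.

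Contig_1177 and contig_5084 were the most like the rest of set 3. Contig_1177 had levels of 7.27, 8.42 and 13.24 (lowest, median, highest) on cyfluthrin arrays and 6.43, 7.45 and 15.20 on control arrays. Contig_5084 had 7.28, 7.88 and 10.33 on cyfluthrin arrays and 7.41, 7.89 and 11.90 on control arrays. In both, cyfluthrin replicate 3 and control replicate 8 were the highest of their groups and most remaining arrays lay close together.

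Set 4 joined 9 contigs whose mean level was 5.55, 11.71, 6.39, 7.51, 10.24, 9.91, 8.33 and 10.87 on cyfluthrin replicates 1 to 8, and 12.15, 7.56, 7.89, 8.20, 9.20, 6.20, 9.48 and 8.65 on control replicates 1 to 8. Relative to the slide mean, cyfluthrin replicate 2 and control replicate 1 were the highest of their groups in all 9. Contig_2011 had levels of 5.46, 9.86 and 11.88 (lowest, median, highest) on cyfluthrin arrays, an 85.7-fold range, and 6.31, 9.02 and 12.72 on control arrays, an 85.3-fold range. Contig_2010 had 5.21, 8.99 and 10.85 on cyfluthrin arrays and 6.38, 7.92 and 11.75 on control arrays. The set's correlation was similar on the 2 slides, at 0.928 and 0.930 with cyfluthrin and 0.949 and 0.937 in controls.

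The mean profiles of sets 1 and 4 had a correlation of 0.643 over cyfluthrin arrays and 0.558 over control arrays. Those of sets 2 and 3 had 0.673 with cyfluthrin and 0.558 in controls. Sets 1 and 2 had 0.118 with cyfluthrin and -0.285 in controls. These are over 8 slide-centred arrays in each group.

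**Figure D5:**
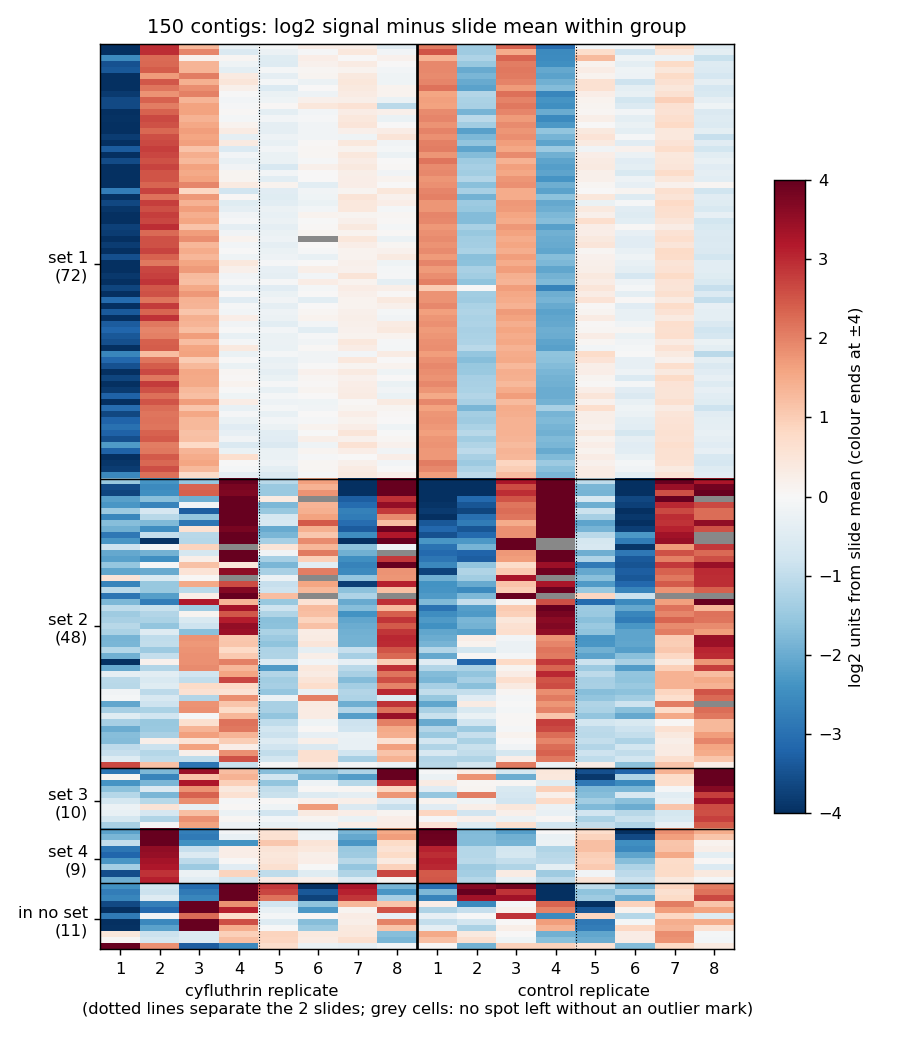
Log2 signal of each of the 150 contigs (rows, grouped by set) on each array (columns, cyfluthrin left and control right), as the difference from the mean of its slide within its group. Red is higher and blue is lower, the colour ends at 4 log2 units, and grey cells had no spot left. The 72 contigs of set 1 are low together on cyfluthrin replicate 1 and on control replicates 2 and 4.

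The 11 contigs in no set included smaller groups, which were picked out after their values were seen. Contig_766, contig_1262 and contig_7110 had correlations of 0.992 to 0.997 with each other over cyfluthrin arrays, and 0.971 to 0.992 over control arrays. Contig_766 had levels of 2.82, 5.23 and 12.32 (lowest, median, highest) on cyfluthrin arrays and 3.22, 9.71 and 11.84 on control arrays. It was high on cyfluthrin replicates 4, 5 and 7 and low on the other 5, while among controls replicates 1 and 4 were low. It was above background on 5 of 8 cyfluthrin arrays and 7 of 8 control arrays.

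Contig_4122, contig_2344, contig_1408 and contig_3 had correlations of 0.965 to 0.998 with each other over cyfluthrin arrays and 0.902 to 0.998 over control arrays. Each was highest on cyfluthrin replicates 3 and 4. Contig_1408 was at 14.17 and 12.29 there, against 5.27 to 9.85 on the other cyfluthrin arrays and 5.02 to 9.36 on control arrays. Contig_5682 ran opposite to these 4 over cyfluthrin arrays, with correlations of -0.908 to -0.927, and not over control arrays, where they were 0.183 to 0.280. It was at 2.56 and 3.27 on cyfluthrin replicates 3 and 4, against 7.56 to 9.87 on the other cyfluthrin arrays and 7.32 to 10.91 on control arrays. Contig_2182 and contig_7011 formed a pair, with a correlation of 0.976 over cyfluthrin arrays and 0.993 over control arrays.

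Some contigs outside the 150 followed the sets as well, most of all set 1. Of 8357 such contigs, 180 had a correlation of at least 0.9 with the mean of set 1 over control arrays. Of these, 92, or 51.1%, also reached 0.9 over cyfluthrin arrays, as did 1.28% of all 8357. Of the 92, 69 had a control mean under 7 and so could not have been chosen. The corresponding counts in both groups were 12 of 54 for set 2, 12 of 130 for set 3 and 6 of 20 for set 4. Over all 8357, the share at 0.9 or more with cyfluthrin was 0.359%, 0.586% and 0.156% for these sets.

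Whether the contigs differed between the slides was compared among the cyfluthrin arrays, where the rule had used neither the spread nor the slide difference, only the overlap of the groups. None of the 150 was called (limma, Benjamini-Hochberg adjusted p under 0.05 over all contigs tested), against a background of 2.6% of 7551 contigs. At an unadjusted p under 0.05 there were 24 of the 150, against 1644 of the 7551 contigs tested, and without cyfluthrin replicate 2 there were 5 at the adjusted threshold. The median difference, slide 2 minus slide 1, was 2.15 log2 units, against 0.08 over all contigs tested, which went both ways. Regardless of sign, the median size of the difference was 2.15 for the 150 and 0.37 over all contigs tested. All 72 contigs of set 1 had the higher mean on slide 2 (median 2.51, range 1.83 to 3.59), as had all 9 of set 4 (median 2.05). Contigs of a set moved together, so these are not separate results. The slide 1 mean of set 1 includes cyfluthrin replicate 1, at 4.39, against 8.08 to 10.57 on the other 3 arrays. The median standard error of the 150 was 1.23, against 0.28 over all contigs, and the lowest adjusted p among them was 0.092 (limma).

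Over all 16 arrays with treatment in the fit, 9 of the 150 were called for slide, all of them higher on slide 2, against a background of 26.8% in either direction and 17.6% higher. The share is lower than the background, and the median standard error of the 150 was 0.83, against 0.19 over all contigs; a large control spread was part of the rule. The 9 were contig_817, contig_2968, contig_8046 and contig_5068 of set 1, contig_4326 and contig_5146 of set 3, and contig_2182, contig_7011 and contig_5664 of no set. Contig_4326 had the largest difference, 3.49 (SE 1.20, limma adjusted p = 0.0431), and contig_2182 the next, 2.71 (SE 0.65, limma adjusted p = 0.00681).

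The levels of contig_2182 on slide 2 were 9.92 to 12.49 with cyfluthrin and 10.68 to 14.62 in controls. On slide 1 they were 9.16 to 10.98 with cyfluthrin and 6.99 to 10.44 in controls, so the slides overlapped with cyfluthrin and not in controls. The count of 9 depended on single arrays. It was 33 without cyfluthrin replicate 2, 30 without control replicate 1 and 25 without control replicate 3. It was 5 without cyfluthrin replicate 1 or 8, 4 without cyfluthrin replicate 4 or 7, 3 without cyfluthrin replicate 6 or control replicate 2, and 2 without control replicate 4 or 7.

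For the treatment itself, the choice of contigs had used the overlap of the groups, so the following is a description. None of the 150 was called (limma, adjusted p under 0.05), against a background of 2.78% of 7552 contigs. At an unadjusted p under 0.05 there were 2 of the 150, against 1183 of the 7552. The median difference, cyfluthrin minus control, was 0.56 log2 units, against 0.08 over all contigs tested, with 111 higher and 39 lower. Regardless of sign, the median size was 0.66 for the 150 and 0.22 over all contigs tested. In set 1, whose contigs moved together, all 72 had the higher mean with cyfluthrin (median 0.75, range 0.31 to 1.09). The medians of sets 2, 3 and 4 were -0.10, 0.42 and 0.09.

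The largest rises in mean level were those of contig_4122, with a mean of 9.45 ± 2.82 with cyfluthrin and 7.36 ± 2.59 in controls (SD, n = 8 each), and contig_1408, with 8.80 ± 3.09 with cyfluthrin and 7.10 ± 1.76 in controls. The differences were 2.09 (SE 1.26, limma adjusted p = 0.451) and 1.70 (SE 1.17, limma adjusted p = 0.511). The largest negative differences were those of contig_5682, with 6.87 ± 2.57 with cyfluthrin and 9.51 ± 1.26 in controls, and contig_1262, with 5.57 ± 3.65 with cyfluthrin and 8.19 ± 3.11 in controls. Those differences were -2.64 (SE 0.94, limma adjusted p = 0.174) and -2.62 (SE 1.58, limma adjusted p = 0.451). None of the 4 passed the test, and the differences were of the order of the spread within the groups.

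The same description was made within each slide. Within slide 2, 45 of the 150 were called, all higher with cyfluthrin and all of set 1 (limma, 4 arrays per group), against a background of 2.58% of 7547 contigs in either direction and 1.96% higher. Within that slide the median correlation of 2 contigs of set 1 was 0.727 with cyfluthrin and 0.909 in controls. The 45 are thus not separate results. The median difference of the 72 contigs of set 1 within slide 2 was 1.45 (range 1.03 to 1.98). The set means were 10.39 to 10.92 with cyfluthrin and 8.70 to 9.77 in controls. Within slide 1, 0 of the 150 were called and 4 had an unadjusted p under 0.05 (limma, background 0.159%), and the median difference of set 1 was 0.05 (range -0.71 to 0.91). The slide by treatment term itself was called in 0 of 150 contigs (limma, background 0.0% of 7548), with 2 of the 150 at an unadjusted p under 0.05 against 241 of the 7548, and every adjusted p among the 150 was at least 0.996.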

How the data were processed

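Whole-body RNA of Eohaustorius estuarius was measured on 16 one-colour Agilent arrays, 8 per group, grouped by the sample titles. Per the labels' protocols, RNeasy columns were used for RNA in each laboratory except 1, which is not named, and cRNA carried Cy3. The deposited scanner files hold spot intensity on a linear scale, already background-subtracted, read with Agilent Feature Extraction 10.7.3.1 per the file headers; the submitters' processing notes name version 9.1. The authors also deposited log2 values for these arrays, centred per probe (8567 probes with controls); no source used here gives their normalization. They served as an alternative, with the choice of eligible contigs kept from the scanner values.

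The processed intensity of 15208 non-control spots per array was scaled to the mean 75th percentile, floored at 5 units, put on the log2 scale and averaged per probe (8507 probes, 1 contig each). Between 30 and 88 spots per array that the scanner software marked as outliers were dropped, which left 9 of the 150 contigs with at least 1 array missing. Those arrays were left out of the contig's values and fits. In set 2 they were cyfluthrin replicates 4, 6 and 8 and control replicates 4, 7 and 8, where the set was high. The ranges and SDs of those contigs may thus be too small. A probe was above background on an array when 0.5 or more of its spots were well above background. Slide-centred SDs are the SD of 8 values after the mean of each slide was subtracted. Differences were fitted over the whole table with limma 3.58.1 (lmFit, eBayes) in R 4.3.3, for probes above background on at least 4 of 8 arrays of either group (7552), with Benjamini-Hochberg adjustment over all of them. All 150 contigs passed this filter. Residual df rest on the 16 arrays, or on 8 for the fits among cyfluthrin arrays and within a slide, so the number of arrays limits the precision. The fits and the ranking were tested on simulated data. For the fits, the largest SDs were capped and the contigs varied independently. That test thus does not bear on contigs with a wide, shared spread, such as the 150.

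The 150 contigs, sets and comparisons were chosen with earlier results of these data known. The contigs named are the 10 with the largest control SD, 3 on each side of the limit, the 5 largest and 5 smallest cyfluthrin SDs, the 2 closest to each set over controls, and the 2 largest differences each way for treatment and for slide among those called; others are said to be chosen after their values were seen. Values within each slide for the spread and the correlations, and the comparison of SDs with arrays left out, were added after the data had been seen. Alternatives covered scaling, background correction (normexp, offset 50, on median-pixel signals, as no mean-pixel signal was used), floor, outlier spots, slide centring, the spread measure, filters, blocks and left-out arrays. Samples of like number in the 2 groups were not treated as pairs, since the numbers do not settle a pairing.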

Additional observations from a re-analysis of the deposited data

Results flagged for a closer look

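The highest or lowest array of a group was set against the rest by its gap to the nearest array as a share of the group's range (Dixon's limit). Over 86 such groups of 8 arrays, 14 passed, where chance passes about 1 in 20 of groups not chosen on their values. That rate does not apply to contigs picked for their control or cyfluthrin SD, and contigs of a set move together, so the number that passed is not read against it.

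Cyfluthrin replicate 1 lay below the rest in contig_2380 (6.10, next 9.73), contig_1789 (7.60, next 11.19) and contig_2882 (7.09, next 8.78). The mean of set 1 was 4.39 on it, and the next lowest cyfluthrin array was at 8.08. Control replicate 8 lay above the other controls in contig_1686 (11.96, next 8.72), contig_7768 (11.30, next 8.24), contig_5084 (11.90, next 8.57) and contig_3424 (10.33, next 7.62). The mean of set 3 was 12.62 on it, and the next control was at 9.34.

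Among cyfluthrin arrays, contig_4326 stood out on replicate 8 at 13.88 (next 8.31), contig_5146 on replicate 6 at 9.75 (next 7.87) and contig_5084 on replicate 3 at 10.33 (next 8.57). Cyfluthrin replicate 7 had the highest 75th percentile, 950.4 units against 577 for the next, and the highest median of negative control spots, 73.5 units against 51. It was the farthest array in 3 of the 150 contigs.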

How the results depend on the processing

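Of the 150 contigs, 92 stayed among the top 150 with normexp background correction and scaling to the 75th percentile, and 148 with the authors' value table. Leaving out single control arrays kept 128 to 142; leaving out a cyfluthrin array kept 150, as cyfluthrin arrays have no part in the ranking. The SD was larger with cyfluthrin in 20 to 110 of the 150 with 1 array left out, 20 being without cyfluthrin replicate 1. The median cyfluthrin SD was 0.744 when measured by the median absolute deviation, 2.66 within slide 1 and 0.441 within slide 2, and 0.930 to 1.99 with 1 array left out. The count in the top 10% was 114 by the median absolute deviation, 70 within slide 2 and 143 to 150 with 1 array left out. Contigs called for slide over all arrays numbered 2 with normexp and 75th percentile scaling, 14 with normexp and quantile normalization, 5 when a contig had to be above background on every array, and 2 to 33 with 1 array left out. Among cyfluthrin arrays they numbered 0 to 5. For cyfluthrin minus control, 45 were called within slide 2, all of set 1, whose contigs moved together, and 0 to 0 with 1 array left out. The median correlation over cyfluthrin arrays with 1 left out was 0.962 to 0.993 in set 1, 0.767 to 0.894 in set 2, 0.347 to 0.825 in set 3 and 0.698 to 0.972 in set 4, and it was 0.727 in set 1 within slide 2. Among the contigs named, 766 slide differences over all arrays kept their side of the threshold, 35 lost it and 12 newly passed, and no called value changed direction. The causes of these shifts were not tested. Replicate pairing was not settled: over 8 like-numbered pairs the correlation of deviations was over 0.1 in 6, and 6 of 16 arrays were closest to their own number. With the replicate block, 0 of the 150 contigs were called for cyfluthrin minus control. Contigs near background on some arrays have spreads that depend on it.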
